A study of Mus musculus with 6 samples.

Results

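The mitogen-activated protein kinase (MAP kinase) genes Mapk3, Mapk6, Mapk7, Mapk8, Mapk9, Mapk11, Mapk12, Mapk13 and Mapk14 were followed in mouse sarcoma cells with a hairpin RNA against Postn and in cells with a scrambled hairpin. They were selected by gene symbol, as 9 of the 35727 genes of the deposited table, and this family was proposed with earlier results of the same contrast known. Their values are therefore a description and carry no test. All 9 passed the filter on low counts.

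The shPostn libraries came from cells of the tumour line p53KO Ccne1 OE transduced with a viral hairpin against Postn, the gene of the secreted matrix protein periostin. The shSCR libraries, the controls, came from the same line with a scrambled hairpin. There were 3 libraries of each. Both groups share the rest of their history: mesenchymal stem cells of female C57/Bl6 p53-knockout mice, a retrovirus for cyclin E1 (Ccne1) and red fluorescent protein, and passage through wild-type female mice before the hairpin. Tumours were grown from each transduced line in mice and the red cells were sorted for RNA. Sample titles call the shPostn group a knockout. The labels describe 1 line per hairpin and 1 hairpin against Postn, so a difference between the transduced lines and an effect of reduced Postn cannot be told apart. Whether the 3 libraries of each hairpin stem from different tumours or animals is not in the labels, and p-values then measure only the spread between these libraries.

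Most MAP kinases are the last of 3 kinases acting in a row. A MAP kinase kinase kinase phosphorylates a MAP kinase kinase, which phosphorylates the MAP kinase, and dual-specificity phosphatases switch it off again. The ERK branch is best known for growth factor and RAS signals, the JNK and p38 branches for stress and cytokine signals. Most of these kinases are controlled mainly by phosphorylation, and RNA counts measure neither that nor kinase activity.

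Library totals lay between 19603269 and 20376554 counts. Postn measured 217, 471 and 639 CPM (counts scaled to a common, normalised library size) in shPostn, against 4097, 3602 and 3225 CPM in shSCR. Most mesenchymal markers were high in every library. Their summed level was 21085, 27257 and 35946 CPM in shPostn, against 25646, 28524 and 26131 CPM in shSCR, although Thy1 was below 4 CPM throughout. Col1a1 and Col1a2 were the largest parts of this sum in every library. The sum also held the driver gene Ccne1, at 14.8 to 19.0 CPM. The library shPostn 3 stood apart. The summed level of 16 leukocyte and macrophage markers was 135, 59.0 and 1132 CPM in shPostn 1, 2 and 3, against 238, 173 and 81.6 CPM in shSCR 1, 2 and 3, and 15 of the 16 markers were highest in shPostn 3. Endothelial markers summed to at most 6.19 CPM, epithelial ones to at most 2.60 CPM and skeletal muscle ones to at most 1.90 CPM in any library, with Krt5 and Krt18 at 0 everywhere.

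The kinase genes did not move as 1 group. Mapk13 had the largest difference and was at 27% of its control level in shPostn, Mapk12 was at 66.9%, and Mapk3 and Mapk8 were at 77.5% and 77.2%. Mapk9 was at 123% of its control level. Mapk6, Mapk7, Mapk11 and Mapk14 had libraries that overlapped between the groups. In the edgeR quasi-likelihood fit over 12819 genes, 4 members lay among the genes called lower, where 5.53% of all tested genes were called lower, and 1 lay among those called higher, where 4.61% were. That made 5 of 9 members against 10.1% of all tested genes in either direction. The same 5 did not overlap between the groups, 4 of them lower in shPostn, where 17.0% of all tested genes did not overlap in that direction and 33.6% in either. Because the family was proposed from this contrast, nothing is read from these counts. Leaving out 1 library moved the calls of members along with those of all genes. Without shSCR 1 or without shSCR 2, 0 members were called, beside 3.30% and 2.36% of all tested genes, and without shSCR 3 Mapk12 alone was, beside 3.10%. Without shPostn 1 there were 4 members called, beside 7.23% of all genes, without shPostn 2 there were 2, beside 4.89%, and without shPostn 3 all 5 were called, beside 17.1%.

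**Figure D1:**
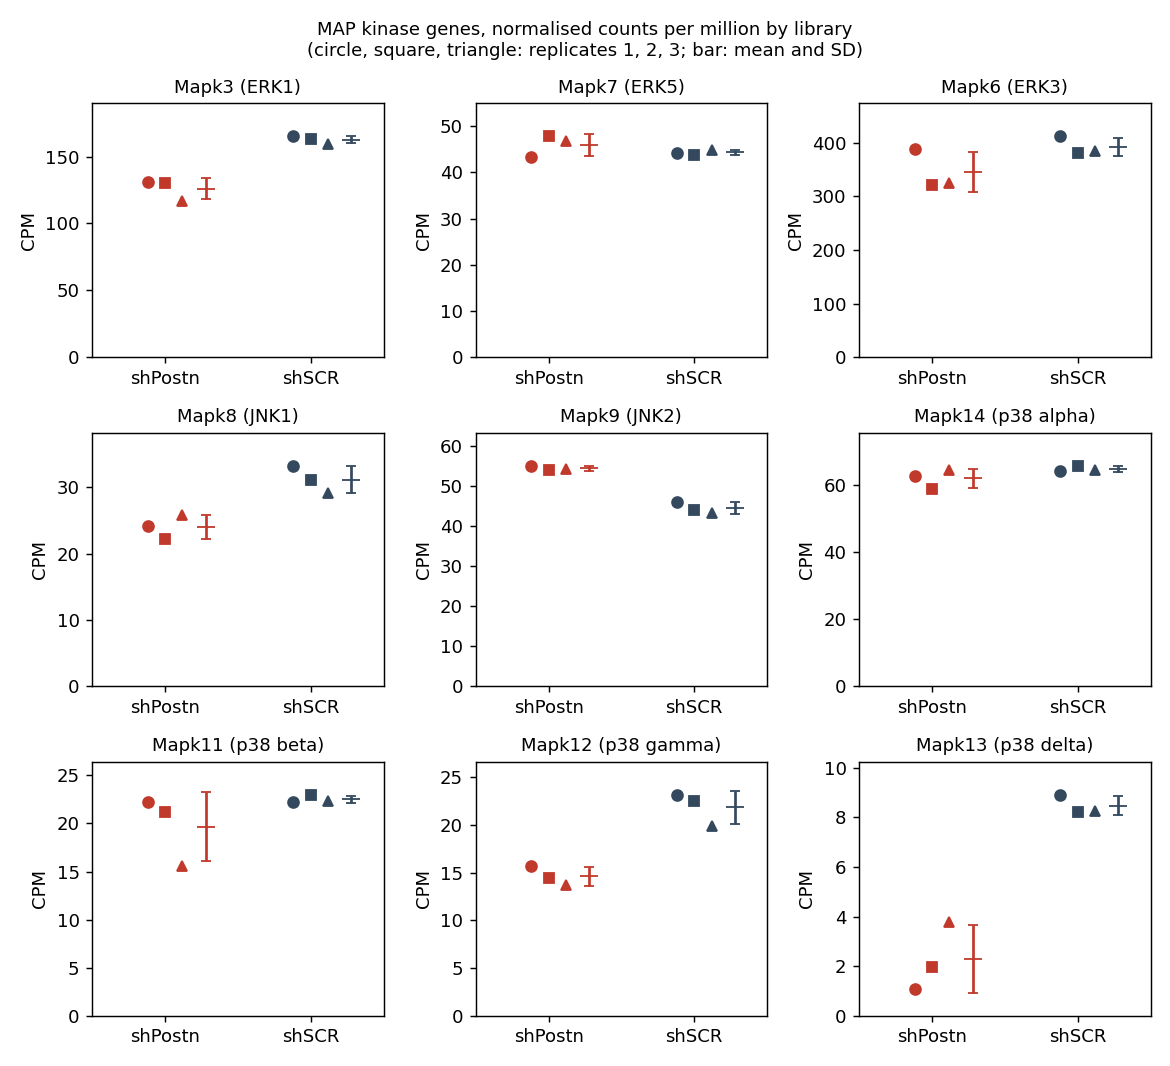
CPM of each MAP kinase gene in each library (y axes start at 0), with shPostn left of shSCR; circles, squares and triangles are replicates 1, 2 and 3, and the bar gives the mean and SD (n = 3). Mapk3, Mapk8, Mapk12 and Mapk13 lie lower and Mapk9 higher in all 3 shPostn libraries, and Mapk11 is lowest in shPostn 3.

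Among the ERK genes, Mapk3 was lower in shPostn. Mapk3 encodes ERK1, the kinase that the MAP kinase kinases MEK1 and MEK2 phosphorylate after growth factor signals (ENSMUSG00000063065; GRCm38 chromosome 7, 126759601 to 126765819, plus strand). It measured 131, 131 and 117 CPM in shPostn, against 165, 163 and 159.5 CPM in shSCR. Every shPostn library lay below every shSCR library. The means were 126 ± 7.88 CPM in shPostn and 163 ± 2.83 CPM in shSCR (SD, n = 3 each). The log2 fold change, shPostn minus shSCR, was −0.37 (standard error, SE, 0.065).

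Mapk7 encodes ERK5, a large kinase that MEK5 activates and that carries a long tail able to act in transcription (ENSMUSG00000001034; chromosome 11, 61488812 to 61494406, minus strand). It measured 43.4, 47.8 and 46.8 CPM in shPostn, against 44.2, 43.8 and 44.9 CPM in shSCR. The groups overlapped and the log2 fold change was 0.05 (SE 0.062). Mfap4, a matrix gene, overlaps Mapk7 on the opposite strand. Mfap4 held 468, 903 and 528 counts in shPostn, against 335, 882 and 941 counts in shSCR. Whether the authors' counting used strand is not given in the sources used here.

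Mapk6 encodes ERK3, an atypical member that lacks the usual pair of activating phosphorylation sites and binds the kinase MK5 (ENSMUSG00000042688; chromosome 9, 75369062 to 75410005, minus strand). It had the most counts of the members. It measured 388, 321 and 325 CPM in shPostn, against 411, 381 and 383 CPM in shSCR. Only shPostn 1 reached into the control range, and the log2 fold change was −0.18 (SE 0.090).

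The JNK genes, whose kinases MKK4 and MKK7 activate and which phosphorylate the transcription factor Jun, differed in opposite directions. Mapk8, the gene of JNK1, measured 24.1, 22.2 and 25.9 CPM in shPostn, against 33.3, 31.2 and 29.1 CPM in shSCR (ENSMUSG00000021936; chromosome 14, 33377898 to 33447158, minus strand). All shPostn libraries were lower, with a log2 fold change of −0.37 (SE 0.088). A predicted gene on the same strand, Gm49037, overlaps Mapk8 and held 52 counts in shPostn 1 and 0 in the other libraries. Adding its counts brought Mapk8 in shPostn 1 to 26.8 CPM, still below every shSCR library, and the log2 fold change to −0.32. Mapk9, the gene of JNK2, measured 55.1, 53.9 and 54.4 CPM in shPostn, against 46.1, 44.0 and 43.2 CPM in shSCR (ENSMUSG00000020366; chromosome 11, 49846751 to 49886421, plus strand). All shPostn libraries were higher, with a log2 fold change of 0.29 (SE 0.056).

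The promoter windows of the JNK genes are shown because these genes differed in opposite directions. The sequences are RefSeq's on GRCm38.p6, from 250 bases before to 50 after the start, at chr14:33447109-33447408 on the minus strand for Mapk8 and chr11:49846501-49846800 on the plus strand for Mapk9. Capitals mark matches on either strand to the SP1 GC box GGGCGG or to TGACGT, the core of the cyclic AMP response element.
Mapk8: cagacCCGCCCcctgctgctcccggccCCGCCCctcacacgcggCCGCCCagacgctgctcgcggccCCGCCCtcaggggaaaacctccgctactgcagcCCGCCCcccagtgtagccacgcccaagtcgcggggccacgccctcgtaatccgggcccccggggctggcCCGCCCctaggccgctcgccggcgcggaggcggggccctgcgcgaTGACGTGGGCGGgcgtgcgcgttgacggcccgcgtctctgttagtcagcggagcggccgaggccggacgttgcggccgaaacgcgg
Mapk9: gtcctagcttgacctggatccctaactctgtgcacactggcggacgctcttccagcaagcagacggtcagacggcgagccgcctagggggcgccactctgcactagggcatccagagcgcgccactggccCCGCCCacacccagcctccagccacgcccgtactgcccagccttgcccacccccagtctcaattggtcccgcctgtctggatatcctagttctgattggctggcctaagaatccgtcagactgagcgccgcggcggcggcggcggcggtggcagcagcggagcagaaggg
RefSeq's table gives Mapk8 a further window inside the gene, at chr14:33410975-33411274, with 0 GC boxes and 0 TGACGT. The window shown for Mapk8, at the 5′ end of the annotated gene, held 7 GC boxes and 1 TGACGT, which directly adjoins a GC box without overlapping it. The Mapk9 window held 1 GC box. Of 32851 mouse promoter windows of this length, 35.7% held at least 1 GC box and 7.51% held at least 1 TGACGT. The bases G and C made up 77.7% of the Mapk8 window shown and 66.7% of the Mapk9 window, beside a median of 52.7% over all windows.

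JNK transcripts as a whole were not lower, and their make-up differed. Per kb of exon, Mapk8 was 0.259, 0.244 and 0.282 of Mapk9 in shPostn, against 0.428, 0.420 and 0.399 in shSCR. The groups did not overlap, and the log2 of this ratio differed by −0.67. With the longest transcript as length it was 0.356, 0.335 and 0.387 in shPostn, against 0.587, 0.576 and 0.548 in shSCR. The summed level of both genes was 10.2, 9.89 and 10.3 CPM per kb in shPostn, against 9.70, 9.21 and 8.91 CPM per kb in shSCR. Mapk8 made up 20.6%, 19.6% and 22% of that sum in shPostn, against 30.0%, 29.6% and 28.5% in shSCR.

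The 4 p38 genes lie as neighbours on 2 chromosomes, and the pairs did not differ alike. On chromosome 17, Mapk14 and Mapk13 are 20890 bases apart. Mapk14 encodes p38 alpha, the widely expressed form that activates the kinase MK2 in inflammatory and stress responses (ENSMUSG00000053436; 28691329 to 28748406, plus strand). It measured 62.6, 58.7 and 64.4 CPM in shPostn, against 64.2, 65.7 and 64.6 CPM in shSCR. The groups overlapped, with a log2 fold change of −0.07 (SE 0.058).

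Mapk13 encodes p38 delta, a form known from epithelial, secretory and myeloid cells (ENSMUSG00000004864; 28769297 to 28780233, plus strand). It measured 1.08, 1.97 and 3.80 CPM in shPostn, from 21, 39 and 76 counts, against 8.90, 8.21 and 8.27 CPM in shSCR, from 181, 168 and 163 counts. Every shPostn library was below every shSCR library, and the shPostn libraries spread more widely than the controls. The means were 2.28 ± 1.39 CPM in shPostn and 8.46 ± 0.384 CPM in shSCR (SD, n = 3 each), and the log2 fold change was −1.89 (SE 0.415). The highest shPostn value came from shPostn 3, the library with the high leukocyte and macrophage markers. Without that library the log2 fold change was −2.47, and it was −1.55 without shPostn 1. The part of leukocyte RNA in the shPostn 3 value was not tested. In bulk RNA, fewer cells of a type and less RNA per cell cannot be told apart.

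On chromosome 15, Mapk12 and Mapk11 are 1782 bases apart. Mapk12 encodes p38 gamma, a form best known from skeletal muscle (ENSMUSG00000022610; 89130584 to 89140703, minus strand). It measured 15.7, 14.4 and 13.7 CPM in shPostn, against 23.1, 22.5 and 19.8 CPM in shSCR. All shPostn libraries were lower, with a log2 fold change of −0.58 (SE 0.095). Summed muscle markers were near 0 in both groups, at 0.923, 1.01 and 1.90 CPM in shPostn and 1.13, 1.47 and 1.12 CPM in shSCR.

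Mapk11 encodes p38 beta, the closest relative of p38 alpha (ENSMUSG00000053137; 89142486 to 89149628, minus strand). It measured 22.3, 21.2 and 15.6 CPM in shPostn, against 22.2, 23.0 and 22.3 CPM in shSCR. Its low value was that of shPostn 3 alone. The log2 fold change was −0.19 (SE 0.134) with all libraries and −0.05 without shPostn 3.

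The promoter windows of Mapk12 and Mapk13 are shown because these p38 genes had the largest differences of the family. Their RefSeq windows on GRCm38.p6 are chr15:89140654-89140953 on the minus strand and chr17:28769067-28769366 on the plus strand, with GC boxes (GGGCGG, either strand) in capitals.
Mapk12: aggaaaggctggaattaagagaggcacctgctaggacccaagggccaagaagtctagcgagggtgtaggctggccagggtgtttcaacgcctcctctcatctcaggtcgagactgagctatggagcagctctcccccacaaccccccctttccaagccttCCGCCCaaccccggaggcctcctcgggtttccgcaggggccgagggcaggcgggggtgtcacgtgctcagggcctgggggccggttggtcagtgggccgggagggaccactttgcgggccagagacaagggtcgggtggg
Mapk13: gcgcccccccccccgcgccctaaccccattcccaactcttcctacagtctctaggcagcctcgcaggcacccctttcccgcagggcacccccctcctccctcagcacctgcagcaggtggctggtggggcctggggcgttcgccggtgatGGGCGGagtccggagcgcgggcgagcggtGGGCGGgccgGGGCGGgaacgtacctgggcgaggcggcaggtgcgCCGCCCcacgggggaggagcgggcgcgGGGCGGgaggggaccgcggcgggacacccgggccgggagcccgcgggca
The Mapk12 window held 1 GC box and that of Mapk13 held 5. Members whose libraries overlapped between the groups held GC boxes too. Mapk6 and Mapk7 had 3 in each of their 2 windows, Mapk11 had 4, and Mapk14 had 1 in 1 of its 2 windows. Of the Mapk6 windows, 1 also held 1 TGACGT. The bases G and C made up 65.3% of the Mapk12 window and 78.0% of the Mapk13 window, beside a median of 52.7% over all windows. In total 8 of the 9 members had a window in the RefSeq table. None of those windows held the AP-1 site TGANTCA or the ATF4-C/EBP composite site TGATGNAA, which occurred in 7.81% and 3.97% of all windows. The ETS core CCGGAA, found in 14.9% of all windows, matched in 1 of the 2 windows of Mapk6 and 1 of the 2 of Mapk14. These are matches of letters, searched on both strands, and not binding sites.

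**Figure D2:**
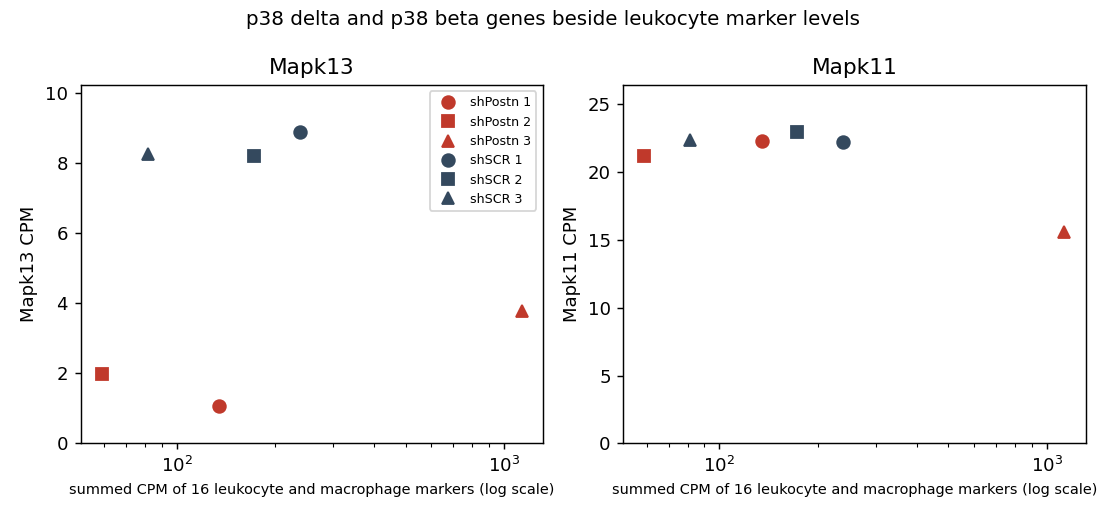
CPM of Mapk13 (left) and Mapk11 (right) against the summed CPM of 16 leukocyte and macrophage markers (log axis); each point is 1 library, shPostn in red and shSCR in dark blue. In shPostn 3, at 1132 CPM of markers, Mapk13 is the highest of its group at 3.80 CPM and Mapk11 the lowest of all libraries at 15.6 CPM.

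Added up per kb of exon, the p38 genes were lower in shPostn, at 26.5, 25.2 and 24.9 CPM per kb, against 31.3, 31.5 and 30.3 CPM per kb in shSCR. Mapk13 made up 1.29%, 2.49% and 4.84% of the p38 sum in shPostn, against 9.05%, 8.28% and 8.66% in shSCR. Mapk14 took a larger share in shPostn, 54.0%, 53.3% and 59.1%, against 46.9%, 47.7% and 48.6% in shSCR, while its own level overlapped between the groups. On the same scale Mapk12 was 0.535, 0.516 and 0.666 of Mapk11 in shPostn, against 0.791, 0.743 and 0.674 in shSCR. These ratios did not overlap, but shPostn 3 and shSCR 3 were close. With the longest transcript as length, Mapk12 was 0.956, 0.923 and 1.19 of Mapk11 in shPostn, against 1.41, 1.33 and 1.21 in shSCR, so which of these genes is the higher depends on the length used.

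**Figure D3:**
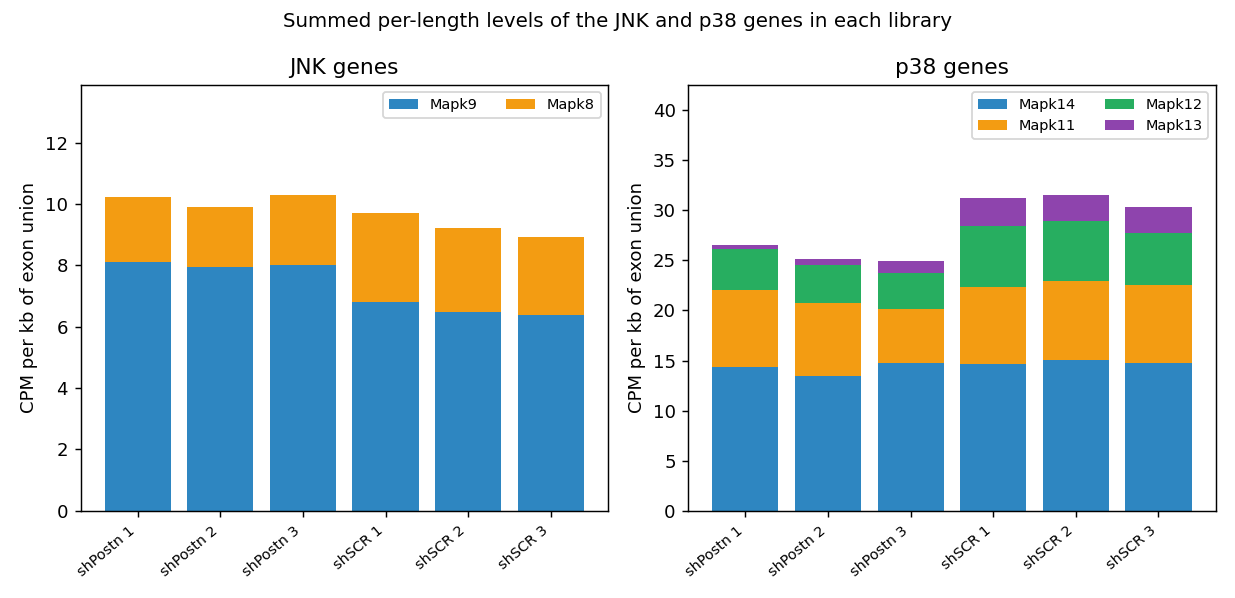
Summed levels of the JNK genes (left) and p38 genes (right) in each library, in CPM per kb of exon union, stacked by gene, with shPostn libraries left of shSCR libraries. The Mapk8 part is smaller and the Mapk9 part larger in shPostn, and the p38 stack is shorter, at 24.9 to 26.5 CPM per kb in shPostn and 30.3 to 31.5 CPM per kb in shSCR.

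Levels can be ordered only per length. Per kb of exon, Mapk3 was the highest, at a mean of 55.9 CPM per kb in shPostn and 72.1 in shSCR, followed by Mapk6 at 51.7 in shPostn and 58.7 in shSCR. Mapk14 followed at 14.2 in shPostn and 14.8 in shSCR, and Mapk7 at 10.5 in shPostn and 10.1 in shSCR. In shPostn the next genes were Mapk9 at 8.03, Mapk11 at 6.82 and Mapk12 at 3.84 CPM per kb. In shSCR Mapk11 stood before Mapk9, at 7.79 and 6.55, with Mapk12 at 5.73 CPM per kb. Mapk8 and Mapk13 were the lowest in both groups, at 2.10 and 0.724 CPM per kb in shPostn, and 2.72 and 2.69 in shSCR. Neighbours in this order overlapped between libraries in a single case per group, Mapk3 with Mapk6 in shPostn and Mapk8 with Mapk13 in shSCR. With the length of the longest transcript in place of the exon union, Mapk6 stood above Mapk3, at 84.4 against 70.1 CPM per kb in shPostn and 95.8 against 90.4 in shSCR. Mapk9 then stood above Mapk7 in shPostn, at 11.6 against 10.8 CPM per kb, and Mapk12 above Mapk11, at 7.57 against 7.52. In shSCR Mapk12 then took the place after Mapk14, at 11.3 CPM per kb, before Mapk7 at 10.5, Mapk9 at 9.49 and Mapk11 at 8.60. The order between Mapk14 and Mapk8 thus depends on the length used.

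**Figure D4:**
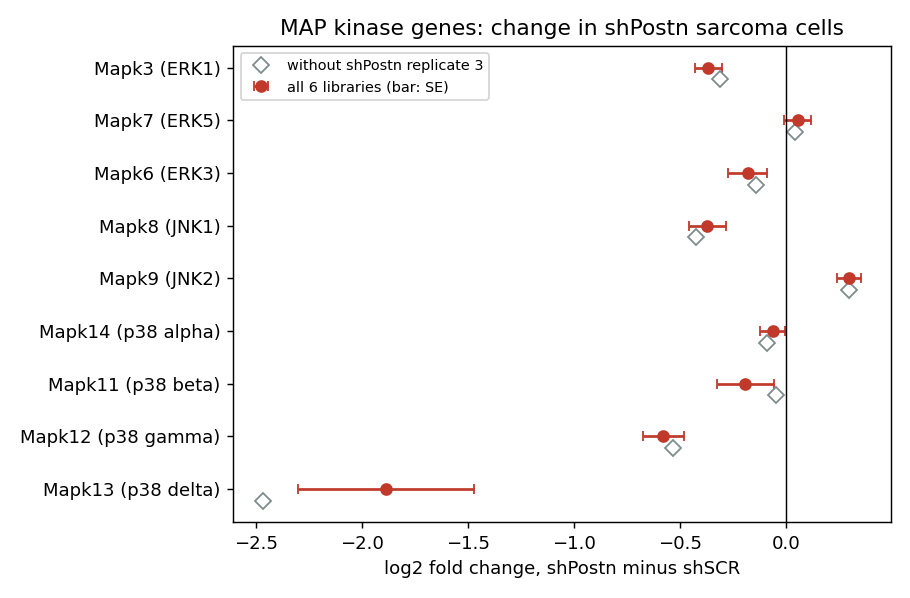
Log2 fold changes (shPostn minus shSCR) of the 9 genes with all 6 libraries (red points, bars are SE) and without shPostn replicate 3 (open diamonds). Leaving out that library moves Mapk13 from −1.89 to −2.47 and Mapk11 from −0.19 to −0.05.

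Genes near the members were looked up in the same fit. Within 250000 bases, 1 of 22 tested neighbours of Mapk3, 1 of 6 of Mapk6, 1 of 2 of Mapk8, and 1 of the 13 shared by Mapk11 and Mapk12 was called, and 0 were for Mapk7, Mapk9, Mapk13 and Mapk14. In all, 4 of 57 distinct neighbours were called, beside 10.1% of all genes tested. The neighbours named here were chosen after their values were seen. Adm2, a peptide hormone gene beside Mapk12 and Mapk11, measured 0.960 CPM in shPostn and 12.9 CPM in shSCR (log2 fold change −3.74, edgeR adjusted p = 0.00274). The called neighbour of Mapk3 was the stress-response gene Nupr1 at a log2 fold change of −0.81, that of Mapk6 was Tmod3 at 0.38 and that of Mapk8 was Arhgap22 at 0.52. The median log2 fold change of chromosome 11, which holds Mapk7 and Mapk9, was 0.08, and that of chromosome 7, which holds Mapk3, was −0.06. With each chromosome's median taken out, Mapk9 had a log2 fold change of 0.22 and Mapk7 of −0.02.

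The genes whose levels ran most like Mapk6 over the 6 libraries were Rras2, a RAS-related GTPase, Cyp20a1 and Hnrnpa2b1, each at a Pearson r of 0.992 of log2(CPM + 0.5) among 10235 genes compared. Those most like Mapk13 were Zfp933 and Ppic, both at 0.999, and Osmr, the oncostatin M receptor, at 0.996. Osmr averaged 10.1 CPM in shPostn and 22.7 CPM in shSCR, and Ppic averaged 255 CPM in shPostn and 364 CPM in shSCR. Mapk13 was taken for its large difference between the groups, so genes most like it are lower in shPostn by that choice. The points share their libraries, and only 6 of them stand behind each value, so these are descriptions.

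The question whether the rest of the cascade differed with its kinases was put to 119 genes in 9 lists by role, of which 108 were tested. The edgeR test called 6 higher and 4 lower in shPostn, against 4.61% and 5.53% of all tested genes, and the median log2 fold change was 0.07, beside 0.01 for all genes tested. An unadjusted p under 0.05 was found for 31 of the 108, and for 3458 of all 12819 genes tested (27%), the share beside which such counts are to be read in each list. The lists were written with earlier results of these data known. When 1 library was left out, the counts again moved with those of all genes. Without shSCR 1, 2 or 3 in turn, 2 genes were called each time, beside 3.30%, 2.36% and 3.10% of all genes. Without shPostn 1, 2 or 3 there were 7, 5 and 20, beside 7.23%, 4.89% and 17.1%.

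Upstream, 0 of the 7 MAP kinase kinases were called by edgeR, DESeq2 or limma-voom, 0 had an unadjusted p under 0.05, and their median log2 fold change was −0.03. The rule for lists with no call named the 2 genes of highest mean CPM over all 6 libraries, without regard to length. These were Map2k7, a JNK kinase, at 90.4 ± 3.26 CPM in shPostn and 96.7 ± 2.48 CPM in shSCR (SD, n = 3 each), and Map2k2, the ERK kinase MEK2, at 89.8 ± 6.66 CPM in shPostn and 91.8 ± 3.13 CPM in shSCR. Their edgeR adjusted p-values were 0.326 and 0.812.

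Of 20 tested MAP kinase kinase kinases, 2 rose and 1 fell, 11 had an unadjusted p under 0.05 (27% of all genes tested did), and the median log2 fold change was −0.11. With chromosome medians taken out that median was 0.02, so its sign depends on the setting. Map3k6, which encodes ASK2, a kinase of the JNK and p38 branches, fell to 22.4, 19.7 and 19.9 CPM in shPostn, against 35.2, 31.4 and 34.4 CPM in shSCR (log2 fold change −0.70, SE 0.085, edgeR adjusted p = 0.00591). It was called in all 14 alternatives, with an adjusted p of at most 0.0343. Map3k12, which encodes the JNK-activating kinase DLK, rose to 33.6, 36.0 and 42.4 CPM in shPostn, against 27.6, 23.4 and 27.3 CPM in shSCR (log2 fold change 0.52, edgeR adjusted p = 0.0315). Its adjusted p was 0.0768, 0.123 and 0.0921 without shSCR 1, 2 and 3, and 0.0736 without shPostn 2. Taok1, a stress-activated kinase, rose to 119 ± 2.26 CPM in shPostn, against 99.5 ± 6.33 CPM in shSCR (n = 3 each, log2 fold change 0.26, edgeR adjusted p = 0.0473). Its call was lost without any 1 of shSCR 1, 2 and 3 and shPostn 1 and 2, at adjusted p-values of 0.158, 0.173, 0.0699, 0.0992 and 0.105. It was also lost with no count filter, at 0.0618, and with chromosome medians taken out, at 0.145, where the log2 fold change was 0.18. Without shPostn 3, 3 kinases of this list were called higher and 5 lower.

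Of the 10 phosphatases of MAP kinases, 1 rose and 1 fell, 3 had an unadjusted p under 0.05, and the median log2 fold change was 0.19. Without shPostn 1 that median was −0.09, and with limma-voom it was 0.09. The library shPostn 1 was the highest of all for 6 of these 10 genes, and for 21.2% of all genes tested. Dusp10, whose phosphatase acts on JNK and p38, fell to 12.6, 12.2 and 16.1 CPM in shPostn, against 22.7, 22.8 and 25.7 CPM in shSCR (log2 fold change −0.80, edgeR adjusted p = 0.0119). Its adjusted p was 0.0551 without shSCR 2 and 0.0554 without shSCR 3. Dusp6, which encodes an ERK phosphatase and is itself an ERK target gene, rose to 165, 127 and 159.8 CPM in shPostn, against 104, 106 and 117 CPM in shSCR (log2 fold change 0.47, edgeR adjusted p = 0.0379). The adjusted p of Dusp6 was 0.126, 0.152 and 0.0886 without shSCR 1, 2 and 3, and 0.0820 without shPostn 1, and 0.0580 with chromosome medians taken out.

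Of 18 tested feedback and target genes of the ERK pathway, 3 rose and 0 fell, 6 had an unadjusted p under 0.05, and the median log2 fold change was 0.10. Beside Dusp6 these were Spred1, an inhibitor of RAS and RAF signalling, and Etv1, an ETS factor named here because it was the remaining called gene of the list. The extremes of the list were uncalled and lay on both sides, with Spry1 at a log2 fold change of −0.99 and Ier3 at 0.51. Spred1 rose to 136, 168 and 158 CPM in shPostn, against 123, 98.7 and 117 CPM in shSCR (log2 fold change 0.45, edgeR adjusted p = 0.0442). Leaving out libraries gave Spred1 an adjusted p of 0.0777, 0.146 and 0.119 without shSCR 1, 2 and 3, and 0.120 and 0.0532 without shPostn 2 and 3. It was 0.0522 with library totals alone and 0.0727 with chromosome medians taken out. Etv1 averaged 80.5 ± 11.6 CPM in shPostn and 59.2 ± 2.33 CPM in shSCR (n = 3 each, log2 fold change 0.44, edgeR adjusted p = 0.0454). Etv1 lies on chromosome 12, and with chromosome medians taken out its log2 fold change was 0.05 (adjusted p = 0.809). Its adjusted p was 0.133, 0.173 and 0.118 without shSCR 1, 2 and 3, 0.113 and 0.119 without shPostn 1 and 2, and 0.0536 with limma-voom. With chromosome medians taken out, 0 genes of the list were called. Without shSCR 1 or 2, 0 genes of the list were called. Without shSCR 3, 0 were called higher and 1 lower, and without shPostn 1, 1 was called higher and 1 lower. DESeq2 called 3 higher and 1 lower. The library shPostn 1 was the highest of all 6 for 11 of these 18 genes, and for 21.2% of all genes tested. The part of that library in the list's values was not tested.

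Among the transcription factors that MAP kinases phosphorylate, 0 of 19 rose and 1 fell in the edgeR test, 4 had an unadjusted p under 0.05, and the median log2 fold change was 0.16. The gene that fell was Ddit3, the stress factor CHOP and a p38 substrate, at 9.18, 8.997 and 10.5 CPM in shPostn, against 14.5, 12.6 and 14.0 CPM in shSCR (log2 fold change −0.51, edgeR adjusted p = 0.0320). For Ddit3 the adjusted p was 0.118, 0.0811 and 0.115 without shSCR 1, 2 and 3, and 0.0753 and 0.0943 without shPostn 1 and 2. DESeq2 called 2 of this list higher and limma-voom 0. Again shPostn 1 was the highest library for 11 of the 19 genes, beside 21.2% of all genes tested, among them Fos, at 1209, 539 and 802 CPM in shPostn, against 519, 439 and 668 CPM in shSCR.

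Of 10 tested kinases that MAP kinases activate, 1 rose and 0 fell, 2 had an unadjusted p under 0.05, and the median log2 fold change was −0.02. Mknk2, which phosphorylates the cap-binding factor eIF4E, rose to 153, 135 and 134 CPM in shPostn, against 107, 111 and 109 CPM in shSCR (log2 fold change 0.37, edgeR adjusted p = 0.0204). Its adjusted p was 0.0840, 0.0878 and 0.0862 without shSCR 1, 2 and 3. Of 11 tested scaffold genes, 0 rose and 1 fell, 4 had an unadjusted p under 0.05, and the median log2 fold change was −0.03. The gene was Ksr2, a scaffold of the ERK branch, which had 1, 5 and 2 counts in shPostn, against 15, 24 and 25 counts in shSCR (log2 fold change −2.92, SE 0.567, edgeR adjusted p = 0.0228). The adjusted p of Ksr2 was 0.0592, 0.103 and 0.0921 without shSCR 1, 2 and 3, and 0.0537 without shPostn 1.

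For RAS and its direct regulators, edgeR called 0 of 16 genes, DESeq2 called 1 higher and limma-voom 0. In this list 2 genes had an unadjusted p under 0.05, and the median log2 fold change was 0.07. Those of highest mean CPM over the 6 libraries were Shc1, an adaptor between receptors and RAS, at 248 ± 16.7 CPM in shPostn and 227 ± 12.4 CPM in shSCR (n = 3 each, edgeR adjusted p = 0.347), and Ptpn11, the phosphatase SHP2, at 156 ± 2.50 CPM in shPostn and 149.6 ± 2.33 CPM in shSCR (edgeR adjusted p = 0.5005). In this list 1 gene was called lower without shPostn 1 and 1 higher without shPostn 3. Among other MAP kinases, Nlk was tested and was not called by edgeR, DESeq2 or limma-voom. Nlk, a kinase known from WNT signalling, averaged 24.0 ± 0.908 CPM in shPostn and 23.0 ± 1.41 CPM in shSCR (n = 3 each, log2 fold change 0.06, edgeR adjusted p = 0.639).

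**Figure D5:**
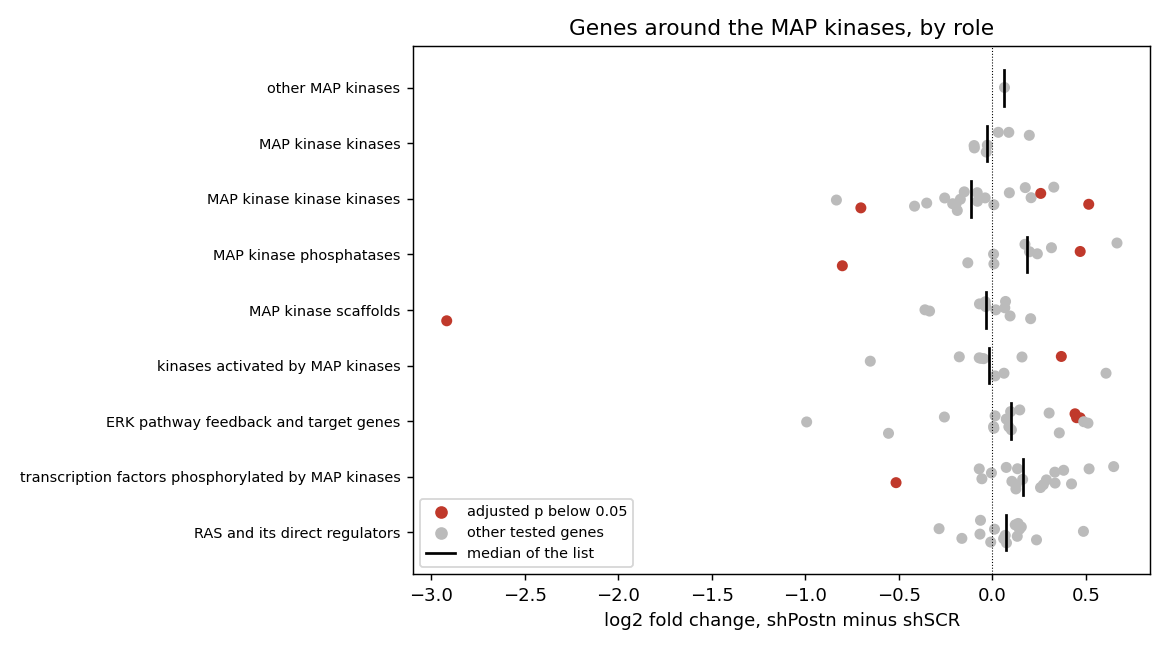
Log2 fold change (shPostn minus shSCR) of each tested gene of the 9 lists by role; red points have an edgeR adjusted p below 0.05, grey points do not, and black bars are list medians. The called genes number 6 above 0, where Dusp6 is drawn in 2 lists, and 4 below 0, the farthest being Ksr2 at −2.92, and list medians lie between −0.11 and 0.19.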

How the data were processed

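Strand-specific poly(A) RNA libraries were made by BGI for DNBSEQ from sorted cells, per the labels' protocols. The authors deposited 1 table of estimated counts per gene, and the submitters' processing notes name Salmon and mm10. The version and annotation used were not given in the sources used here. Every value was a whole number, so rounding changed none. Symbols (35422 of 35727 genes) came from the gene name table and positions (35493) from GENCODE M21 on GRCm38.

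Genes passed edgeR 4.0.16's filterByExpr (minimum count 10, R 4.3.3). After TMM scaling, shPostn was set against shSCR by the robust quasi-likelihood F-test in 12819 genes, with Benjamini-Hochberg adjustment and a threshold of 0.05. The common biological coefficient of variation was 0.183. CPM used TMM-scaled totals. Level per length is CPM per kb of merged exons. DESeq2 1.42.0 and limma-voom 3.58.1 were alternatives, as were other scalings and filters, a replicate block, chromosome medians and leaving out each library. In counts simulated at this size, edgeR recovered most of the changes made. Those changes were larger than the differences of all members but Mapk13, and recovery of smaller changes was not simulated. The share of false calls of edgeR lay somewhat above the threshold, and that of DESeq2 far above it. Unlike edgeR, DESeq2 also called genes in simulated counts without any change. The passing rule of the simulation was limited to edgeR after this outcome was seen. Reads carry no molecular identifiers.

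The members and lists were chosen with earlier results of these data known. Named were all members, and per list the 2 called genes of largest absolute log2 fold change in either direction, or, with none called, the 2 of highest mean CPM over all libraries. For likeness the 3 genes with the highest r were named, among those of at least 4 CPM. Genes without a symbol, predicted genes and clone names were passed over there. The result of 1 gene is not reported here, and it was left out of the lists. Ratios, sums, the neighbour window, motifs, printed promoters, the leukocyte plot, counts of highest libraries and the addition of Gm49037 were chosen after the values were seen.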

Additional observations from a re-analysis of the deposited data

How the results depend on the processing

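Over all genes, 1300 were called, against 1973 with DESeq2, 735 with a replicate block, 655 with chromosome medians taken out, and 307 to 2220 when 1 library was left out. For the genes around the kinases, 10 were called, against 17 with DESeq2, 4 with the replicate block, and 2 to 20 when 1 library was left out. With the replicate block the calls of Map3k12, Taok1, Dusp6, Mknk2, Spred1, Etv1 and Ddit3 were lost. Their edgeR adjusted p-values there were 0.0514, 0.0958, 0.0542, 0.0560, 0.117, 0.0975 and 0.0678, in that order. The causes were not tested.

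Same-numbered libraries correlated at −0.07, −0.13 and −0.44 in their deviations, and the other pairs at −0.32 to 0.40. These few values gave no sign of pairing by replicate number but cannot settle it. With the block, 2 members, Mapk3 and Mapk12, were called, beside 5.73% of all tested genes. Members called numbered 5 under other scalings and filters, DESeq2 and limma-voom. Of all tested genes, 10.2% and 10.3% were called under the other scalings, 6.62% with no count filter and 10.9% with the filter at 1 CPM. DESeq2 called 15.4% and limma-voom 10.5%. With chromosome medians taken out, 3 members were called, Mapk3, Mapk8 and Mapk12, beside 5.11% of all tested genes. The calls of Mapk9 and Mapk13 were lost there. Mapk7 turned from 0.05 to −0.02 with chromosome medians taken out; the other 8 members kept their direction in the alternatives run.

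Small log2 fold changes of uncalled genes turned in sign. With chromosome medians taken out, Nlk was at −0.011. When 1 library was left out, Map2k2 ranged between −0.092 (without shPostn 1) and 0.012 (without shPostn 2). Depth limits Mapk13 and Ksr2, with at most 76 and 5 counts per shPostn library.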

Other observations

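Among other MAP kinase genes, Mapk4 had 0 counts in every library and Mapk15 averaged 0.0333 CPM in shPostn and 0.0169 CPM in shSCR. Mapk10, the gene of JNK3, known mainly from neurons, had 8, 4 and 20 counts in shPostn and 4, 6 and 1 counts in shSCR. Its highest count was in shPostn 3, the library with the high leukocyte markers. These genes did not pass the filter on low counts and were not compared between groups.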
